A study of Mus musculus with 9 samples.

Results

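Integrins are the adhesion receptors by which microglia, the resident macrophages of the brain, hold on to matrix, to other cells and to particles they engulf. The transcripts of 10 integrin subunits were followed here in sorted microglia of 3 mouse genotypes: Itgam, Itgb2, Itgal, Itgav, Itgb3, Itgb5, Itga4, Itga6, Itgb1 and Itga5. They were chosen by gene symbol, with earlier results of these data known, and the list leaves out Itgax. A probe set counted for a gene if it carried that symbol alone, and the brightest probe set stood for the gene. All 10 genes were found, on 11 of the 41345 probe sets of the array, among 22180 genes tested. Itgav had a second, dimmer probe set, and every other member had 1.

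An integrin is a pair of an alpha and a beta subunit, and the pair decides what it binds. The beta 2 integrins are those of leukocytes: with Itgb2, Itgam makes complement receptor 3 (Mac-1), Itgal makes LFA-1 and Itgax makes complement receptor 4. Itgav pairs with Itgb3, Itgb5, Itgb1 or Itgb8 in receptors of the RGD motif, which bind vitronectin and the bridging protein Mfge8 and, with Itgb8 above all, release active TGF-beta. Itgb1 pairs with Itga4 (VLA-4, a receptor of VCAM-1 and fibronectin), Itga5 (the fibronectin receptor) and Itga6 (a laminin receptor). Integrins rest in a bent form until talin and kindlin bind the beta tail from inside, and a bound integrin signals back through Src and Syk kinases.

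Microglia were sorted from the perfused brains of female C57Bl/6 mice aged 24 to 28 weeks, with 3 arrays per genotype. The FAD DKO group carried the transgenes of the 5X familial Alzheimer's disease model (FAD), floxed Hdac1 and Hdac2 and Cx3cr1CreERT2, a tamoxifen-dependent Cre recombinase under control of the Cx3cr1 locus. The FAD group carried the FAD transgenes and the floxed alleles without the Cre, and the wild-type (WT) group was labelled as wild type only. All 3 groups, controls included, had received 8 mg of tamoxifen at 6 weeks of age. FAD DKO and FAD therefore differ in the Cre allele as well as in the deletion, which cannot be told apart here, and FAD and WT differ in the floxed alleles as well as in the FAD transgenes. Cre driven from Cx3cr1 acts in any cell that expresses Cx3cr1. The labels do not state that arrays came from separate animals, so p-values measure the spread among these samples, which may be partly technical.

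The values were log2 signals of one-colour arrays, deposited by the authors after RMA, a method that corrects background, normalizes between arrays and summarises probes. Array medians lay between 5.35 and 5.40. Hdac1 had log2 signals of 7.63, 7.41 and 7.64 in FAD DKO, 8.03, 8.14 and 8.19 in FAD, and 8.07, 8.65 and 8.60 in WT. Hdac2 had 7.89, 7.61 and 7.90 in FAD DKO, 8.56, 8.52 and 8.36 in FAD, and 8.28, 8.39 and 8.22 in WT. Both deleted genes were thus lowest on all 3 FAD DKO arrays, although neither passed the test against FAD (differences of -0.56 and -0.68, limma adjusted p = 0.376 and 0.159), and whether the probes lie within the deleted exons is not given in the sources used here. Cx3cr1, whose locus carries the Cre, was 11.86, 11.95 and 11.82 in FAD DKO, 12.14, 12.13 and 12.11 in FAD, and 12.13, 12.27 and 12.22 in WT (-0.25 for FAD DKO against FAD, adjusted p = 0.383).

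The sorted cells carried microglial markers on every array. The mean log2 signal of 9 microglial genes (among them P2ry12, Tmem119 and Csf1r) was 10.83 to 10.95 in FAD DKO, 10.90 to 10.97 in FAD and 11.04 to 11.08 in WT. The mean of 9 neutrophil genes was 5.91, 7.83 and 7.09 in FAD DKO, 7.03, 7.17 and 7.09 in FAD, and 6.42, 7.03 and 7.0 in WT, and FAD DKO replicates 1 and 2 held the lowest and the highest value. For 7 of 8 monocyte genes it was 5.31, 6.21 and 5.91 in FAD DKO, 6.29, 6.09 and 6.07 in FAD, and 5.73, 5.96 and 5.90 in WT. The other 8 lists (border macrophages, T and NK cells, B cells, platelets, endothelium and mural cells, astrocytes, the oligodendrocyte lineage and neurons) had means between 4.58 and 6.22 on every array. Single genes on these lists were brighter, such as Ighm (B cells), Il7r (T and NK cells) and Gp9 (platelets), which averaged 10.20, 8.18 and 8.02 over the 9 arrays. A single gene of all these lists passed the test in any comparison, the endothelial receptor Flt1, which was 1.26 higher in FAD DKO than in WT (adjusted p = 0.00872). No value of the genes on these lists was at 0. In sorted but bulk RNA, a change in the mix of cells and a change in RNA per cell cannot be told apart.

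The 10 listed integrin subunits, which leave out Itgax, gave no call between the 3 genotypes. On the log2 scale their differences were of the size of those of other genes, but their arrays scattered less within groups. The median residual SD of the 10 subunits was 0.0699, against 0.132 over all genes and 0.104 over genes at or above the median signal. In FAD microglia against WT, 5 of the 10 subunits had a positive log2 difference and 5 a negative one, from -0.20 (Itgav) to 0.25 (Itga5). The median difference was 0.027, against -0.007 over all 22180 genes, and the median size of a difference was 0.087 on the log2 scale both for the integrins and for all genes. None passed limma's test at a Benjamini-Hochberg adjusted p under 0.05 (0 of 10), where 0.0406% of all genes did. At an unadjusted p under 0.05 there were 2, Itgb3 higher and Itgav lower, to be read against 8.43% of all genes (4.41% higher and 4.02% lower). The groups did not overlap for 3 subunits, with Itgal and Itgb3 higher and Itgav lower in FAD, where 11.8% of all genes were so separated (6.37% higher and 5.46% lower).

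Deletion of Hdac1 and Hdac2 on top of the FAD transgenes went with differences of a similar size. In FAD DKO microglia against FAD, 3 subunits had a positive and 7 a negative difference, from -0.47 (Itga4) to 0.09 (Itgb5), with a median of -0.016 against 0.010 over all genes. Their median size was 0.067, against 0.090 over all genes. Limma called 0 of the 10, where it called 0.0225% of all genes, and 2 were below an unadjusted p of 0.05 (Itgb3 and Itga4, both lower), where 8.1% of all genes were, 3.69% higher and 4.41% lower. Only Itgb3 had FAD DKO arrays that did not overlap the FAD arrays, lower in FAD DKO, where 11.9% of all genes were separated, 5.38% higher and 6.5% lower.

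In FAD DKO microglia against WT, 5 differences were positive and 5 negative, from -0.33 (Itga4) to 0.09 (Itgal and Itga5), with a median of 0.007 against 0.004 over all genes. Limma again called 0 of the 10, where it called 0.14% of all genes, and Itgav alone, lower, had an unadjusted p under 0.05, where 8.14% of all genes did, 3.95% higher and 4.19% lower. Groups did not overlap for Itgal (higher) and for Itgav and Itgb2 (lower), where 11.9% of all genes were separated, 5.77% higher and 6.15% lower. In each of the 3 comparisons, 8 of the 10 subunits (80.0%) differed by less than 0.2 on the log2 scale, as did 82.8% of all genes in FAD against WT, 82.3% in FAD DKO against FAD and 83.1% in FAD DKO against WT. The 3 comparisons share arrays with each other, so that a high FAD array raises one difference and lowers another.

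**Figure D1:**
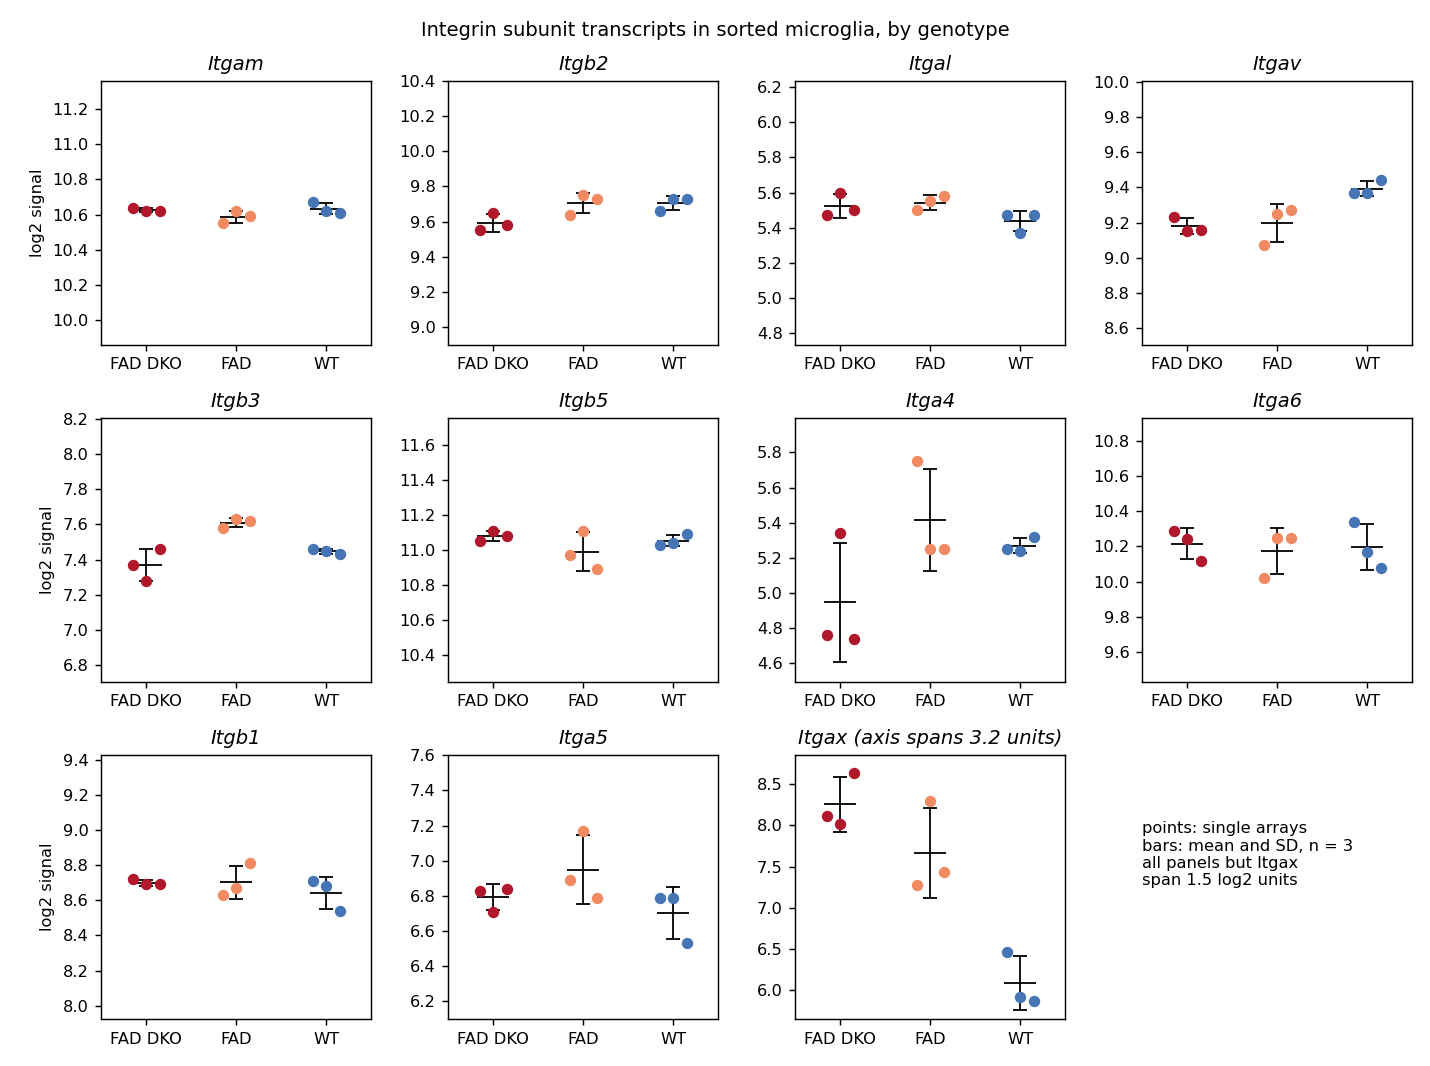
Log2 signal of the 10 integrin subunits and of Itgax on each array (points) with the mean and SD of each genotype (bars, n = 3), FAD DKO left, FAD in the middle and WT right. The Itgax axis spans 3.2 log2 units and the others 1.5; Itgav is highest in WT, Itgb3 highest in FAD, and Itga4 most scattered, and Itgax lies at 5.87 to 6.46 in WT, below all other arrays.

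In the beta 2 family none of the 3 listed subunits passed the test in any comparison, and Itgam had the smallest spread of the 10 subunits. Itgam, the alpha chain of complement receptor 3 and the CD11b antigen by which microglia are commonly sorted, had log2 signals of 10.64, 10.62 and 10.62 in FAD DKO, 10.55, 10.62 and 10.59 in FAD, and 10.67, 10.62 and 10.61 in WT. All 9 arrays lay within a narrow band and the 3 groups overlapped. FAD differed from WT by -0.05 (SE 0.0582, 95% interval -0.18 to 0.08, adjusted p = 0.864), which is a ratio of 0.968 with an interval of 0.884 to 1.06. Against FAD, FAD DKO differed by 0.04 (interval -0.09 to 0.17, adjusted p = 0.875), and against WT by -0.01 (interval -0.14 to 0.12, adjusted p = 0.983). Its residual SD of 0.0288 was the lowest of the 10 subunits, whose median was 0.0699. The median was 0.132 over all genes and 0.104 over genes at or above the median signal.

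Itgb2, the beta chain shared by Itgam, Itgal and Itgax, had log2 signals of 9.55, 9.65 and 9.58 in FAD DKO, 9.64, 9.75 and 9.73 in FAD, and 9.66, 9.73 and 9.73 in WT. FAD and WT lay together, and the FAD DKO arrays were at the low end, below every WT array and overlapping FAD. The differences were -0.11 for FAD DKO against FAD (interval -0.26 to 0.03, adjusted p = 0.673), -0.12 for FAD DKO against WT (interval -0.26 to 0.03, adjusted p = 0.694), and less than 0.01 in size for FAD against WT (interval -0.15 to 0.14, adjusted p = 0.989).

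Itgal, the alpha chain of LFA-1, a receptor of the ICAMs best known from lymphocytes, had signals near the median of the array: 5.47, 5.60 and 5.50 in FAD DKO, 5.50, 5.55 and 5.58 in FAD, and 5.47, 5.37 and 5.47 in WT. Both FAD DKO and FAD lay above WT, although the lowest FAD DKO array and the highest WT array both read 5.47. FAD was 0.11 above WT (adjusted p = 0.71) and FAD DKO 0.09 above WT (adjusted p = 0.796), and FAD DKO and FAD differed by -0.02 (adjusted p = 0.952). The mean of the T and NK cell genes, which include other lymphocyte genes, was between 4.90 and 5.05 on all arrays, although Il7r on that list averaged 8.18.

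Itgam lies on mouse chromosome 7 next to Itgax and Itgad, 2 further partners of Itgb2, with no protein-coding gene between neighbours and 1 pseudogene in each gap. Itgal lies on the same chromosome, 35 protein-coding genes away from Itgam. Itgax, which encodes CD11c and is a marker of the microglia that gather around plaques, was not a member of the list but is the contrast to it. It had log2 signals of 8.11, 8.02 and 8.63 in FAD DKO, 7.27, 8.29 and 7.43 in FAD, and 6.46, 5.92 and 5.87 in WT. Every FAD DKO and FAD array was above every WT array, and FAD DKO overlapped FAD. In FAD DKO against WT, Itgax rose by 2.17 on the log2 scale (SE 0.282), a ratio of 4.5 with an interval of 2.9 to 7.01 and an adjusted p of 0.0319. That call rested on the setting, since the adjusted p ran between 0.00905 and 0.154 over 17 other settings and passed in 7 of them. It was lost on leaving out any WT array, any FAD DKO array or FAD replicate 3 (0.0555 to 0.154). FAD against WT gave 1.58 (interval 0.94 to 2.21, adjusted p = 0.141) and FAD DKO against FAD 0.59 (adjusted p = 0.631). Itgad, on its other side, had 4.35, 4.21 and 4.44 in FAD DKO, 4.62, 4.44 and 4.35 in FAD, and 4.35, 4.31 and 4.35 in WT, which is below the array median in all groups.

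The promoters of Itgam and Itgax are shown because these neighbouring genes share a beta chain and gave such different values. Each window runs from 250 bases before to 50 bases after the transcription start, taken from RefSeq on assembly GRCm38.p6, plus strand, at chr7:128062390-128062689 for Itgam and chr7:128129300-128129599 for Itgax. Capitals mark GAGGAA, the core of the motif bound by PU.1, the ETS factor of the macrophage lineage, or its reverse complement TTCCTC.
Itgam: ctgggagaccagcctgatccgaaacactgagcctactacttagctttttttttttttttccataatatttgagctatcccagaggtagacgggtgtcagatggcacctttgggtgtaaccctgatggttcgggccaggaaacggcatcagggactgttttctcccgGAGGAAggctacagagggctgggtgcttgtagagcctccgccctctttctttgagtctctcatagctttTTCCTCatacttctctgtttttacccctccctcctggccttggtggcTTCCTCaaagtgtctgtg
Itgax: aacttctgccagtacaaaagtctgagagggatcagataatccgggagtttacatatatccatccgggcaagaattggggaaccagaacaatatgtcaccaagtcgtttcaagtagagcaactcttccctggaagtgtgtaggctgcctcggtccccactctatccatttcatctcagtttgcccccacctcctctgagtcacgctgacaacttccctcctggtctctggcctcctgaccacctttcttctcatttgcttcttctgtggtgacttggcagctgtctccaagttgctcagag
The letters GAGGAA occur once and TTCCTC 2 times in the Itgam window, and neither occurs in the Itgax window. On either strand they occur in 28.3% of all 32851 mouse promoter windows of the same 300 bases, and in 4 of the 7 integrin genes shown or listed here that had an entry (Itgam, Itgav, Itgb1 and Itga5, and not Itgb5, Itga4 or Itgax). A match of 6 letters is a description of the sequence and does not mark a bound site.

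**Figure D2:**
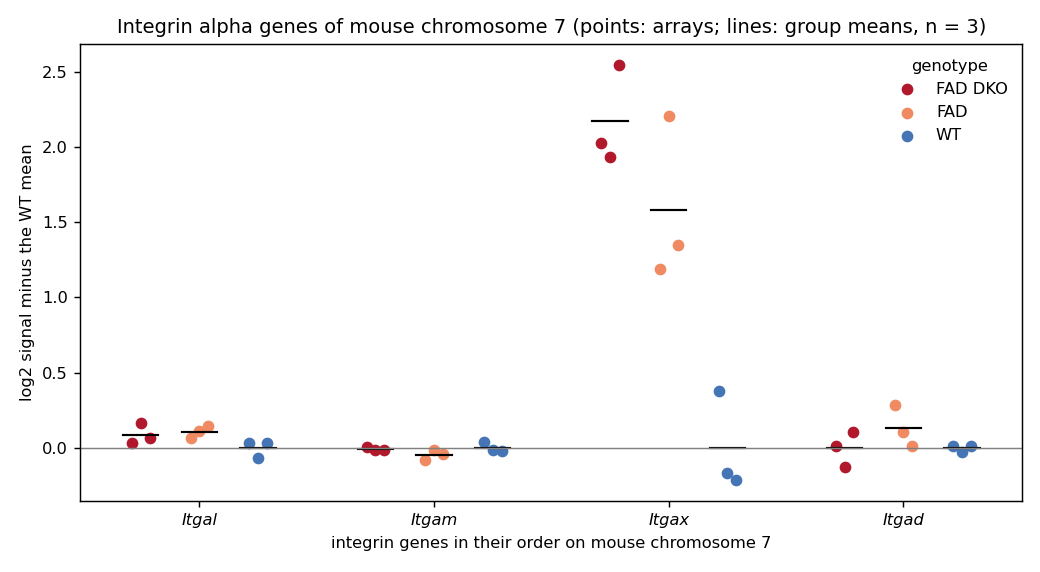
Log2 signal minus the WT mean of the 4 integrin alpha genes of mouse chromosome 7, in gene order, on each array (points) with group means (lines, n = 3), FAD DKO left, FAD in the middle and WT right. Itgax lies at a mean of 2.17 in FAD DKO and 1.58 in FAD, while the points of Itgam stay close to 0 in all 3 genotypes.

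Itgav, the alpha chain of the vitronectin receptors, was the subunit with the lowest FAD values relative to WT. Its log2 signals were 9.23, 9.15 and 9.16 in FAD DKO, 9.07, 9.25 and 9.27 in FAD, and 9.37, 9.37 and 9.44 in WT. All 6 arrays with the FAD transgenes lay below all 3 WT arrays, and FAD DKO and FAD overlapped. FAD was -0.20 from WT (SE 0.0725, interval -0.37 to -0.04, unadjusted p = 0.0216), and FAD DKO -0.21 from WT (interval -0.38 to -0.05, unadjusted p = 0.0163). Neither passed adjustment over all genes in limma (adjusted p = 0.523 and 0.454), and FAD DKO and FAD differed by -0.01 (interval -0.18 to 0.15, adjusted p = 0.971).

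The dimmer probe set of Itgav had log2 signals of 7.35, 7.10 and 7.09 in FAD DKO, 6.79, 6.89 and 7.11 in FAD, and 7.38, 7.20 and 7.17 in WT. Here too FAD was below WT on every array, by -0.32 (SE 0.116, unadjusted p = 0.0241, adjusted p = 0.661 over all probe sets). FAD DKO, however, overlapped WT (-0.07, adjusted p = 0.936) and was 0.25 above FAD (adjusted p = 0.711). The probe sets thus ran alike for FAD against WT and differed for both FAD DKO comparisons. The microglial marker mean given above was likewise highest in WT on all arrays, and its part in the Itgav values was not tested.

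Itgb3, the beta chain that makes the vitronectin receptor with Itgav, had log2 signals of 7.37, 7.28 and 7.46 in FAD DKO, 7.58, 7.63 and 7.62 in FAD, and 7.46, 7.45 and 7.43 in WT. The 3 FAD arrays were higher than all 6 others, while FAD DKO and WT overlapped. FAD was 0.16 above WT (SE 0.066, interval 0.02 to 0.31, unadjusted p = 0.0344, adjusted p = 0.573). FAD DKO was -0.24 from FAD (interval -0.39 to -0.09, unadjusted p = 0.00539, adjusted p = 0.383), and -0.08 from WT (adjusted p = 0.819). Both differences turn on the same FAD arrays and are not independent. Of the 10 subunits, Itgb3 had the smallest p over the 3 groups together (F test of limma, unadjusted p = 0.0151).

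Genes with a pattern like that of Itgb3 were looked for among 11531 genes at or above the median signal, by the root mean square difference of values centred on each gene's mean over the 9 arrays. The nearest were Fam204a (0.0292), Larp4b (0.0308), Zdhhc13 (0.0316), Rbm22 (0.0347) and Ipo4 (0.0363), against 0.11 for the deviation of Itgb3 from its own mean. These genes were picked for that pattern, which is a description with no test. Fam204a averaged 7.77 in FAD DKO, 8.02 in FAD and 7.86 in WT.

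Itgb5, the beta chain of the other vitronectin receptor and a subunit well expressed by microglia, had log2 signals of 11.05, 11.11 and 11.08 in FAD DKO, 10.97, 11.11 and 10.89 in FAD, and 11.03, 11.04 and 11.09 in WT. The groups overlapped, with the lowest 2 arrays in FAD. FAD differed from WT by -0.07 (adjusted p = 0.835), FAD DKO from FAD by 0.09 (adjusted p = 0.745) and FAD DKO from WT by 0.02 (adjusted p = 0.956). The first of these was -0.13 without FAD replicate 2 and -0.02 without FAD replicate 3, and the second 0.15 and 0.04 without these arrays.

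Itgb1, the partner of the matrix-binding alpha chains, had log2 signals of 8.72, 8.69 and 8.69 in FAD DKO, 8.63, 8.67 and 8.81 in FAD, and 8.71, 8.68 and 8.54 in WT. Itga6, the alpha chain of the laminin receptor, had 10.29, 10.24 and 10.12 in FAD DKO, 10.02, 10.25 and 10.25 in FAD, and 10.34, 10.17 and 10.08 in WT. Neither showed an order of the genotypes: the groups overlapped in every comparison. The 3 differences of Itgb1 lay between -0.01 and 0.06 and those of Itga6 between -0.02 and 0.04, with adjusted p-values of 0.872 or more.

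Itga5, the alpha chain of the fibronectin receptor, had log2 signals of 6.83, 6.71 and 6.84 in FAD DKO, 6.89, 7.17 and 6.79 in FAD, and 6.79, 6.79 and 6.53 in WT. FAD replicate 2 was the highest array and WT replicate 3 the lowest, and FAD and WT met at 6.79. FAD was 0.25 above WT (SE 0.113, interval -0.01 to 0.50, adjusted p = 0.611), which came to 0.14 without FAD replicate 2. FAD DKO differed by -0.16 from FAD (adjusted p = 0.719), or by -0.05 without that array, and by 0.09 from WT (adjusted p = 0.887).

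Itga4, the alpha chain of VLA-4, is known from monocytes and lymphocytes and is low in resident microglia. Its log2 signals of 4.76, 5.34 and 4.74 in FAD DKO, 5.75, 5.25 and 5.25 in FAD, and 5.25, 5.24 and 5.32 in WT were, on every array but FAD replicate 1, below the median of all probe sets, 5.35. FAD DKO replicates 1 and 3 were the lowest and FAD replicate 1 was the highest, while FAD DKO replicate 2 lay with the other groups. The residual SD of 0.259 was the highest of the 10 subunits. FAD DKO was -0.47 from FAD (interval -0.88 to -0.06, unadjusted p = 0.0285, adjusted p = 0.546). That value became -0.31 without FAD replicate 1 and -0.67 without FAD DKO replicate 2. FAD DKO was -0.33 from WT (adjusted p = 0.702; -0.52 without FAD DKO replicate 2 and -0.22 without FAD DKO replicate 3) and FAD 0.15 from WT (SE 0.181, adjusted p = 0.864). The mean of the monocyte genes was also lowest on FAD DKO replicate 1 and highest on FAD replicate 1, at 5.31 and 6.29. On FAD DKO replicate 3, the lowest array for Itga4, it was 5.91, within the WT values. The part of such cells in the Itga4 values was not tested.

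**Figure D3:**
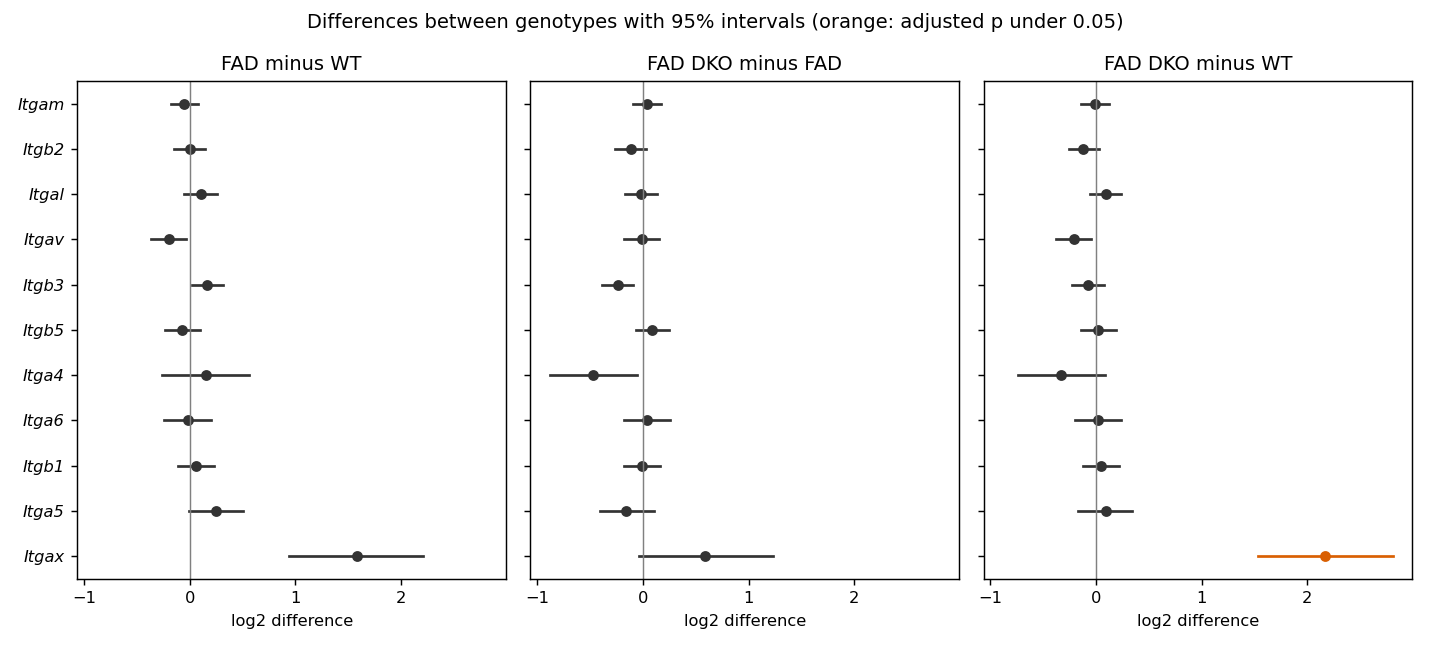
Log2 differences of the integrin subunits and of Itgax with their 95% intervals (limma, 9 arrays in 1 fit) in the 3 comparisons. Most intervals of the 10 subunits include 0. Those that do not are Itgav, below 0 in FAD and in FAD DKO against WT, and Itgb3, above 0 in FAD against WT. Itgb3 and Itga4 also lie below 0 in FAD DKO against FAD. The widest of the 10 are those of Itga4, reaching -0.88 in FAD DKO against FAD. Orange marks an adjusted p under 0.05, and Itgax alone has it, in FAD DKO against WT.

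Since a receptor needs both chains, the log2 signal of the alpha gene minus that of the beta gene was taken within each array, and only its shift between genotypes was read. The 9 pairs were chosen with the single-gene values known, and gave 27 shifts. With 3 arrays against 3, the exact two-sided permutation test cannot go below 0.1, and adjusted over the 27 shifts no p was below 0.245. Itgav minus Itgb3 was 1.87, 1.87 and 1.70 in FAD DKO, 1.49, 1.62 and 1.65 in FAD, and 1.91, 1.93 and 2.02 in WT. On this brighter Itgav probe set FAD DKO lay between the other groups with no overlap on either side. The shift was -0.37 for FAD against WT, 0.23 for FAD DKO against FAD and -0.14 for FAD DKO against WT, each with an exact p of 0.1. On the dimmer Itgav probe set, a check added after seeing the data, the shifts were -0.48 and 0.49 for the first and second of these (exact p = 0.1), but FAD DKO overlapped WT with a shift of 0.00 (exact p = 1.0).

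Itgav minus Itgb1 shifted by -0.26 in FAD against WT and by -0.27 in FAD DKO against WT (exact p = 0.1 for both), and by -0.01 between FAD DKO and FAD. The dimmer probe set gave -0.38 for FAD against WT (exact p = 0.1), -0.12 with overlap for FAD DKO against WT (exact p = 0.3) and 0.25 without overlap for FAD DKO against FAD (exact p = 0.1). For Itgav minus Itgb5, FAD DKO lay below WT by -0.24 (exact p = 0.1) and FAD overlapped WT (-0.13, exact p = 0.4), while on the dimmer probe set FAD DKO overlapped WT too (-0.10, exact p = 0.5). The balance of complement receptor 3, Itgam minus Itgb2, was 0.15 higher in FAD DKO than in FAD (exact p = 0.1), and that of complement receptor 4, Itgax minus Itgb2, was 2.29 higher in FAD DKO than in WT and 1.58 higher in FAD than in WT (exact p = 0.1 for both). For LFA-1, Itgal minus Itgb2 was 0.09 higher in FAD DKO than in FAD and 0.20 higher in FAD DKO than in WT (exact p = 0.1 for both). The pairs of Itgb1 with Itga4, Itga5 and Itga6 overlapped between all genotypes.

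**Figure D4:**
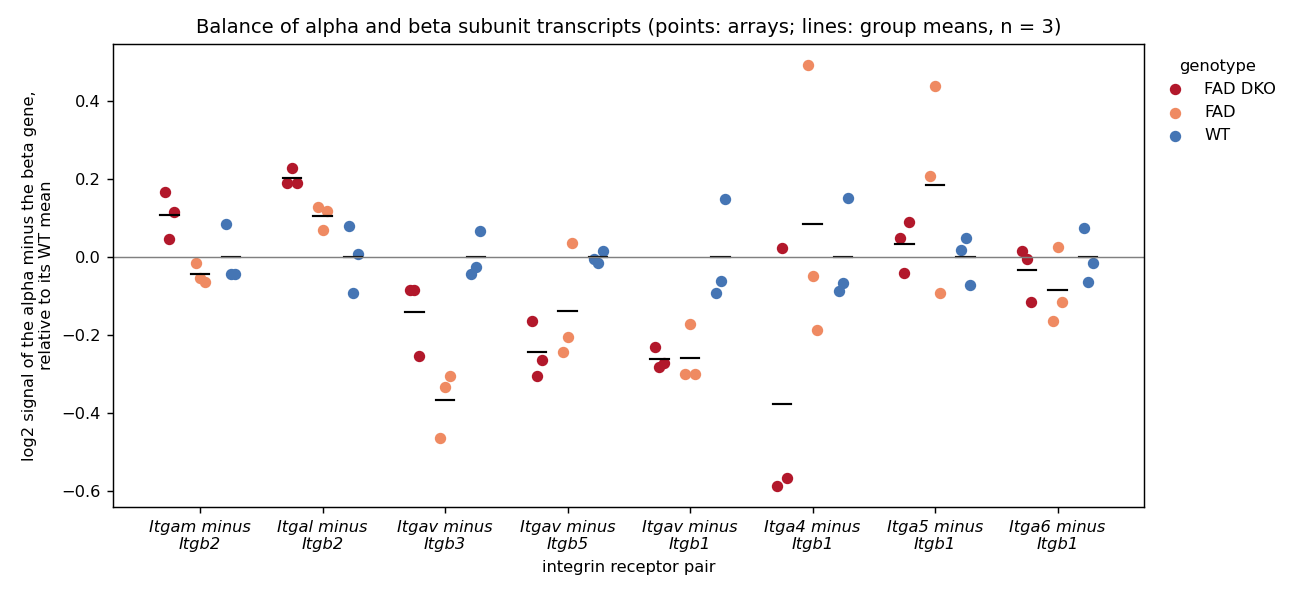
Log2 signal of the alpha gene minus that of the beta gene on each array (points), relative to the WT mean of the pair, for 8 receptor pairs with FAD DKO left, FAD in the middle and WT right; lines are group means (n = 3). Itgav (brighter probe set) relative to Itgb3 is lowest in FAD, with shifts of -0.37 for FAD and -0.14 for FAD DKO against WT.

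Of 16 further integrin subunits, 15 were measured (Itga10 was not analysed), and Itgax in FAD DKO against WT was the only call among them in any comparison. The next smallest p was that of Itga9, the alpha chain of a receptor of tenascin and osteopontin. It had log2 signals of 7.89, 7.94 and 7.69 in FAD DKO, 7.89, 7.86 and 7.94 in FAD, and 8.09, 8.21 and 8.18 in WT. As for the brighter probe set of Itgav, but not the dimmer one, all FAD DKO and FAD arrays were below all WT arrays. The differences were -0.32 for FAD DKO against WT (limma adjusted p = 0.248) and -0.26 for FAD against WT (limma adjusted p = 0.463). Itgb8, the partner of Itgav in activation of TGF-beta, averaged 5.19 in FAD DKO, 5.07 in FAD and 4.85 in WT, each below the median of all probe sets, 5.35. Between FAD DKO and WT the difference was 0.34 (limma adjusted p = 0.519). Itgae, the alpha chain of a receptor of E-cadherin, differed by -0.30 in FAD DKO against WT (adjusted p = 0.532).

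The ligands, regulators and partners of integrins gave no call in any of the 3 comparisons of the main fit (limma, 0 of 28 ligands, 0 of 16 activators, 0 of 8 inhibitors, 0 of 28 signalling genes, 0 of 14 membrane partners and 0 of 15 traffic genes). These lists were not read under the other settings. At an unadjusted p under 0.05 there were, among the 28 ligands, 1 higher in FAD against WT, 1 higher in FAD DKO against FAD and 3 higher in FAD DKO against WT, with none lower. Of all genes, 4.41%, 3.69% and 3.95% were higher in these comparisons, and 4.02%, 4.41% and 4.19% lower. Whatever their p, 9 ligand differences were positive and 19 negative in FAD against WT. The counts were 21 and 7 in FAD DKO against FAD, and 16 and 12 in FAD DKO against WT. The lowest difference against WT was that of F11r, -0.53 in FAD and -0.61 in FAD DKO. Fn1, which encodes fibronectin, the ligand of the Itga5 and Itga4 receptors, had log2 signals of 5.98, 6.41 and 6.11 in FAD DKO, 6.69, 6.11 and 6.23 in FAD, and 5.50, 5.92 and 5.66 in WT. All FAD arrays and all FAD DKO arrays were above all WT arrays (0.65, adjusted p = 0.405, and 0.47, adjusted p = 0.516), and Fn1 is also on the monocyte list. Mfge8, the bridge between apoptotic cells and Itgav receptors, was 0.29 higher in FAD DKO than in FAD (adjusted p = 0.518). Spp1, Cyr61 and C3 were not analysed.

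Among 16 genes that activate integrins from inside, 1 (Tln2) was higher at an unadjusted p under 0.05 in FAD against WT, 1 (Rasgrp1) higher in FAD DKO against FAD and 1 (Rapgef1) lower in FAD DKO against WT. That is 1 of 16 in each comparison, near the share of all genes in either direction (8.43%, 8.1% and 8.14%). Tln2, a talin, averaged 6.44 in FAD DKO, 6.56 in FAD and 6.38 in WT, with a difference of 0.18 for FAD against WT (adjusted p = 0.573). Of the 8 inhibitors, 2 were lower and 1 higher at that threshold in FAD DKO against FAD, 2 lower in FAD DKO against WT and none in FAD against WT, to be read against the same shares. Flna, the filamin that competes with talin for beta tails, had log2 signals of 6.59, 6.65 and 6.58 in FAD DKO, 6.96, 6.85 and 6.87 in FAD, and 6.73, 6.88 and 6.84 in WT. The FAD DKO arrays were the lowest 3, by -0.29 against FAD (adjusted p = 0.306) and -0.21 against WT (adjusted p = 0.43). Rap1gap2, which switches off the integrin activator Rap1, differed by -0.30 from FAD (adjusted p = 0.506) and by -0.41 from WT (adjusted p = 0.267) in FAD DKO.

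Signalling downstream of integrins held the gene nearest to a call. Of 28 measured genes, 2 were higher and 3 lower at an unadjusted p under 0.05 in FAD against WT, 3 lower in FAD DKO against FAD, and 1 higher and 5 lower in FAD DKO against WT. Of all genes, 4.41% were higher and 4.02% lower in FAD against WT, 4.41% were lower in FAD DKO against FAD, and 3.95% were higher and 4.19% lower in FAD DKO against WT. Whatever their p, 14 differences were positive and 14 negative in FAD against WT, as in FAD DKO against FAD. Against WT, FAD DKO had 11 positive and 17 negative ones. The largest rise was that of Fgr, 0.53 in FAD and 0.54 in FAD DKO against WT. Vav2, an exchange factor of small GTPases that acts on the cytoskeleton, had log2 signals of 7.56, 7.52 and 7.44 in FAD DKO, 7.74, 7.81 and 7.84 in FAD, and 8.36, 8.13 and 7.95 in WT. The 3 genotypes did not overlap, with FAD DKO lowest and WT highest. FAD DKO was -0.64 from WT (SE 0.102, interval -0.87 to -0.41, adjusted p = 0.0681), FAD -0.35 from WT (adjusted p = 0.446) and FAD DKO -0.29 from FAD (adjusted p = 0.518). Ptk2b, the focal adhesion kinase Pyk2, had 7.99, 7.81 and 7.93 in FAD DKO, 8.12, 8.29 and 8.31 in FAD, and 8.35, 8.27 and 8.17 in WT, lowest on the 3 FAD DKO arrays (-0.33 from FAD, adjusted p = 0.349; -0.35 from WT, adjusted p = 0.219).

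Of the 14 membrane proteins that associate with integrins, 2 were higher at an unadjusted p under 0.05 in FAD against WT, 2 lower in FAD DKO against FAD, and 2 higher and 1 lower in FAD DKO against WT. In either direction, 8.43%, 8.1% and 8.14% of all genes were below that p in these comparisons. The tetraspanin Cd9, an integrin partner and also a gene of plaque-associated microglia, had log2 signals of 11.07, 11.03 and 11.03 in FAD DKO, 10.95, 11.06 and 11.26 in FAD, and 10.77, 10.64 and 10.28 in WT. As for Itgax, FAD DKO and FAD lay above every WT array (0.48 for FAD DKO, adjusted p = 0.304; 0.53 for FAD, adjusted p = 0.344). Lrp1, an endocytic receptor that binds integrins, was 9.52, 9.62 and 9.63 in FAD DKO, 9.78, 9.80 and 9.96 in FAD, and 9.92, 9.84 and 9.81 in WT, lowest on the FAD DKO arrays (-0.25 from FAD, adjusted p = 0.407; -0.26 from WT, adjusted p = 0.339). Among 15 genes of integrin traffic, 2 were higher at that threshold in FAD against WT, 1 lower in FAD DKO against FAD and 2 lower in FAD DKO against WT, with the same shares of all genes. Eps8, an actin regulator, was 5.99, 5.35 and 6.01 in FAD DKO, 6.25, 6.00 and 6.17 in FAD, and 5.38, 5.75 and 5.40 in WT, and FAD was 0.63 above WT (adjusted p = 0.446).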

How the data were processed

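RNA of sorted microglia was hybridised to 9 one-colour arrays, 3 per genotype; groups and replicate numbers follow the labels. Total RNA was amplified and biotin-labelled, per the labels. Per the submitters' processing notes, the authors used RMA; what they deposited is 1 log2 signal for each probe set and array. The RMA version is not given in the sources used here. Signal over background was not analysed, and the number of arrays limits the precision.

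Of 41345 probe sets, 25335 were named by a probe table: 23521 had 1 symbol and 1814 several, and 16010 were not listed. RefSeq (GRCm38.p6) matched 23328 of those with 1 symbol and changed 0 symbols. For 1082 genes with several probe sets the one with the highest mean was used, leaving 22180 genes. No 2 arrays were copies: their differences had an SD of at least 0.335 (log2).

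All 9 arrays entered 1 fit in limma 3.58.1 (R 4.3.3; lmFit, then eBayes with neither trend nor robust setting), with a mean per group, 6 residual degrees of freedom and 8.98 after moderation. Two-sided p-values were adjusted within each comparison over all genes (Benjamini-Hochberg), and those under 0.05 after adjustment are the calls. As a check of the code, the fit was run on simulated data with planted changes. That run does not show how small an integrin difference the arrays could detect. Receptor pairs were compared with exact permutation tests. Motifs and figures were made with Python 3.11.15 and matplotlib 3.10.9. Members, gene lists and the rule for named genes (every integrin subunit, the deleted genes, and up to 4 genes per list with the smallest p) were chosen with earlier results of these data known; the text uses a part of the named genes. The alternatives were a filter on low signal, quantile normalization, a trended and robust variance, array weights, the mean of probe sets, every probe set, only the groups compared, a block for the replicate number, and each array left out in turn. The second Itgav probe set (alone and in its pairs) and the receptor pairs were added after seeing the data.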

Additional observations from a re-analysis of the deposited data

How the results depend on the processing

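Over all settings, 0 of the 10 integrin subunits were called in any comparison (507 values, lowest adjusted p 0.154 for Itgb3 in FAD DKO against FAD). Itga4 was not tested under the filter on low signal. Of the 30 subunit differences, 19 kept their sign in every setting and 11 did not, the largest of them Itga4 in FAD against WT (0.15). Leaving out 1 array gave, in FAD against WT, -0.03 to 0.03 for Itgb2, -0.02 to 0.23 for Itga4 and -0.08 to 0.06 for Itga6. In FAD DKO against FAD it gave -0.06 to 0.01 for Itgal, -0.07 to 0.02 for Itgav, -0.03 to 0.09 for Itga6 and -0.05 to 0.05 for Itgb1. In FAD DKO against WT it gave -0.02 to 0.01 for Itgam, -0.04 to 0.09 for Itga6 and -0.00 to 0.08 for Itgb1. Quantile normalization gave 0.02 for both Itgav and Itgb1 in FAD DKO against FAD, and 0.01 for Itgam and -0.01 for Itgb5 in FAD DKO against WT, and array weights gave 0.00 for Itgam there. Itgav in FAD DKO against FAD was 0.12 as the mean of its probe sets and 0.25 on the second one, a look added after seeing the data.

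The number of genes called over the whole array moved more, and the cause was not tested. For FAD against WT it was 9, and became 33 with the filter, 43 with the trended and robust variance, 22 with array weights and 5 with only the groups compared; leaving out 1 array gave 8 to 12. For FAD DKO against FAD it was 5, and became 11 with the filter, 3 with quantile normalization, 12 with the trended and robust variance, and 0 with only the groups compared; leaving out 1 array gave 0 to 5. For FAD DKO against WT it was 31, and became 117, 124 and 82 with the filter, the trended and robust variance and array weights, 14 with every probe set and 13 with only the groups compared; leaving out 1 array gave 2 to 28. Of 9 same-numbered pairs of arrays, 1 had a correlation of deviations over 0.1, within -0.11 to 0.12. Pairs with different numbers ran from -0.19 to 0.13. With 3 arrays per group, these values cannot settle whether the replicate numbers share a batch. With the replicate number as a block, limma called 0 of the 10 integrin subunits in each comparison, and 2 genes in FAD DKO against FAD and 11 in FAD DKO against WT. Itgax in FAD DKO against WT was 2.17 in that fit with an adjusted p of 0.13, against a range of 0.00905 to 0.154 over all settings.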

Other observations

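Several integrin values were identical on more than 1 array. Itgam had the same value, 10.62, on replicate 2 of all 3 genotypes, Itga4 the same value, 5.25, on FAD replicates 2 and 3 and WT replicate 1, and Itga5 the same value, 6.79, on FAD replicate 3 and WT replicates 1 and 2. Counting Itgal, which shared 5.50 between FAD DKO replicate 3 and FAD replicate 1, repeated values were present in 4 of the 10 subunits (40.0%), against 60.1% of all genes. Values compared to 9 decimals were counted as identical.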
